A study of Arabidopsis thaliana with 44 samples.

Results

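The SNC1/RPP5 cluster is a run of immune receptor genes on chromosome 4 of Arabidopsis thaliana. The 8 genes described here were taken by identifier, without use of any measured value, from the 33341 genes of a count table. In chromosomal order they are RPP4 (AT4G16860), SNC1 (AT4G16890), AT4G16900, AT4G16920, AT4G16940, RPP5 (AT4G16950), AT4G16960 and RLM3 (AT4G16990). All 8 were among the 20375 genes with enough reads to be tested. Histone regions over these genes, or within 1 kb of either side of them, were taken from 12 region tables.

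Receptors of the TIR-NLR class carry an N-terminal TIR domain, a nucleotide-binding domain and leucine-rich repeats. On activation they signal through EDS1 and its partners PAD4 and SAG101 to helper receptors of the ADR1 and NRG1 families, and salicylic acid defence is switched on. RPP4 and RPP5 give resistance to the downy mildew oomycete Hyaloperonospora arabidopsidis. A gain-of-function allele of SNC1 causes constitutive defence and dwarfing, so the dose of these receptors matters to the plant. RLM3 encodes a TIR-domain protein required for resistance to the fungus Leptosphaeria maculans.

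Shoots of 3 mutant lines, pkl-1, clf-28 and pie1-5, were set against those of WT, all from 3-week-old plants grown in soil, stratified for 3 d at 4 °C and then kept under 16 h of light. PKL remodels nucleosomes as a member of the CHD3 family, CLF is a Polycomb methyltransferase for histone H3 lysine 27, and PIE1 is the ATPase of the complex that deposits the histone variant H2A.Z. Each genotype had 3 RNA-seq libraries, named below by genotype and number, and 2 chromatin immunoprecipitation (ChIP) libraries per mark, stated by the submitters to be independent biological replicates. The labels carry no other allele or agent, give neither the accession of the plants nor the hour of collection, and the same WT libraries serve all 3 comparisons.

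RNA-seq libraries held 21.6 M to 33.1 M reads over genes. Leaf markers, a list of 5 genes, summed to 6586 to 9271 CPM (counts scaled to library depth) in the mutants and 8257 to 8655 CPM in WT, and edgeR called none of them in any mutant, with 1 lower in pkl-1, 0 in clf-28 and 2 lower in pie1-5 at an unadjusted p under 0.05 and 1, 0 and 1 called lower by DESeq2. Without pie1-5 1, edgeR called 2 of them lower in pie1-5. Of all tested genes edgeR called 4.03% in pkl-1, 2.15% in clf-28 and 7.36% in pie1-5 with all libraries. Root markers summed to 69.8 to 75.8 CPM in pkl-1, 47.4 to 57.1 CPM in clf-28 and 87.2 to 98.4 CPM in pie1-5, against 38.1 to 57.4 CPM in WT, with 2 or 3 of the 5 at 0 in each library. Of these, PYK10, a beta-glucosidase gene of roots, was called higher in pkl-1 (53.3 ± 2.64 CPM, adjusted p = 0.00987) and pie1-5 (65.0 ± 7.75 CPM, adjusted p = 0.00149), against 27.4 ± 7.06 CPM in WT. The call in pie1-5 held with any 1 library left out, and that in pkl-1 was lost without WT 1 or WT 3 (adjusted p = 0.0531 and 0.0666). Pollen markers summed to at most 3.76 CPM and seed markers to at most 0.840 CPM in any library. PKL transcripts were higher in the libraries labelled pkl-1 (31.2 ± 3.49 CPM, against 16.8 ± 1.46 CPM in WT) and CLF transcripts in those labelled clf-28 (26.9 ± 6.32 CPM, against 3.92 ± 1.80 CPM in WT; SD, n = 3), so these levels do not check the labels. The call of PKL in pkl-1 (adjusted p = 0.0247) was lost in each of the 6 fits without 1 library, with adjusted p values of 0.0569 to 0.110. PIE1 had 4.46 ± 1.07 CPM in pie1-5 and 8.34 ± 1.62 CPM in WT, with the libraries apart but an adjusted p of 0.0565.

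In bulk shoots, fewer cells expressing a gene and less RNA per cell cannot be told apart. A pair of libraries stood apart from their genotype over the cluster, clf-28 3 upward and pie1-5 1 downward, and fold changes of the cluster genes without them are given where they differ much from those with them. In pie1-5 1 the clock genes also stood apart. LHY, which with CCA1 encodes a morning-expressed repressor, had 59.6 CPM in pie1-5 1, against 0.573 and 1.16 CPM in pie1-5 2 and 3 and 2.99 to 3.95 CPM in WT. CCA1 had 44.1 CPM in pie1-5 1, against 1.53 and 1.36 CPM in the other pie1-5 libraries. LHY and CCA1 were chosen after their values were seen.

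RLM3 was the only cluster gene that edgeR, with its low-count filter, called in any of the 3 mutants, and it was lower in each of them. It had 43.1, 42.9 and 50.4 CPM in pkl-1, 49.2, 49.0 and 64.0 CPM in clf-28, with 57.7, 59.5 and 61.2 CPM in pie1-5, against 94.3, 87.5 and 92.9 CPM in WT. Every mutant library lay below every WT library. The fall was 2.01-fold in pkl-1 (log2 fold change -1.01 ± 0.16 SE, adjusted p = 0.00166). It was 1.69-fold in clf-28 (-0.76 ± 0.16, adjusted p = 0.0191) and 1.54-fold in pie1-5 (-0.62 ± 0.16, adjusted p = 0.0255). These are edgeR estimates from 1 fit of all 12 libraries, called at an adjusted p under 0.05.

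One call among 8 genes stands against the share of all tested genes called lower, which was 2.58% in pkl-1, 1.23% in clf-28 and 3.56% in pie1-5. No cluster gene was called higher, where 1.45%, 0.918% and 3.8% of all genes were. In either direction 4.03%, 2.15% and 7.36% of all genes were called. Libraries that do not overlap between mutant and WT, as those of RLM3, were found for 25.3%, 21.3% and 25.6% of all tested genes. DESeq2 also called RLM3, and no other cluster gene, in each mutant. The authors' deposited table gives RLM3 an FDR of 3.02e-05 in pkl-1, 0.00596 in clf-28 and 0.0216 in pie1-5, in a table where 6.61%, 3.91% and 10.7% of its 18489 genes pass an FDR of 0.05.

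The call of RLM3 in pkl-1 held when any 1 of its 6 libraries was left out, with adjusted p values of 0.00568 to 0.0138. In clf-28 the call of RLM3 was lost without WT 1, WT 2, WT 3, clf-28 1 or clf-28 2 (adjusted p 0.0512 to 0.111) and was kept without clf-28 3 (adjusted p 0.0199). In pie1-5 it was lost without WT 1, WT 2, WT 3, pie1-5 2 or pie1-5 3 (adjusted p 0.0563 to 0.0825) and kept without pie1-5 1 (adjusted p 0.0302). RLM3 estimates in these fits stayed between -1.09 and -0.97 in pkl-1, -0.90 and -0.69 in clf-28, and -0.66 and -0.60 in pie1-5.

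Clock genes are given beside RLM3 because their summed level also differed between mutants and WT. The 10 clock genes of the list summed to 145 to 173 CPM in pkl-1, 156 to 218 CPM in clf-28 and 135 to 150 CPM in pie1-5, against 80.2 to 95.2 CPM in WT. Of these 10 genes, 3 were called higher in pkl-1, 4 in clf-28 and 3 in pie1-5, among them PCL1 (also named LUX) and GI, which encode evening-phased clock components. Among all tested genes 1.45%, 0.918% and 3.8% were called higher in pkl-1, clf-28 and pie1-5. The sum hides that pie1-5 1 was unlike pie1-5 2 and 3. Without LHY and CCA1, a choice made after the data were seen, the 8 other genes summed to 45.9 CPM in pie1-5 1, with 133 and 143 CPM in pie1-5 2 and 3, against 71.3 to 85.0 CPM in WT. In pkl-1 they summed to 142 to 170 CPM and in clf-28 to 153 to 215 CPM. RLM3 in pie1-5 1, at 57.7 CPM, lay with the other pie1-5 libraries. With 1 library left out the calls numbered 2 in pkl-1, 2 or 3 in clf-28, and 2 to 6 in pie1-5, where 6 were called higher and 2 lower without pie1-5 1. PCL1 had 22.2 ± 1.97 CPM in pkl-1, 19.0 ± 2.87 CPM in clf-28, with 15.7 ± 4.63 CPM in pie1-5, against 6.43 ± 0.521 CPM in WT. The part of the clock genes or of the root markers in the level of RLM3 was not tested.

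**Figure D1:**
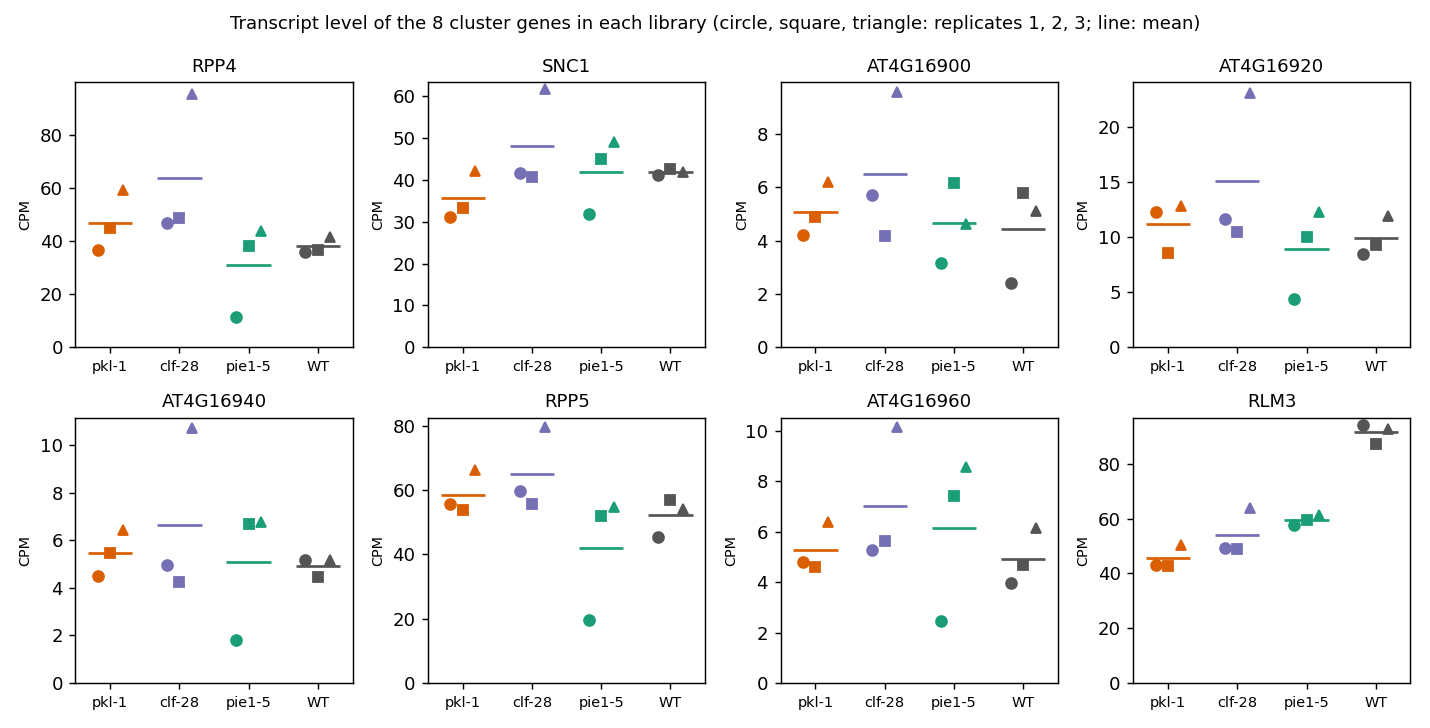
Level of each cluster gene in CPM (vertical axes, linear and starting at 0) in the 3 libraries of pkl-1, clf-28, pie1-5 and WT, with a line at the mean. RLM3 lies between 42.9 and 64.0 CPM in the mutants and above 87 CPM in WT, while the other genes overlap between most genotypes, clf-28 3 lies high and pie1-5 1 low.

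SNC1, the receptor whose overactive allele is known for autoimmunity, was called in none of the mutants. It had 31.1, 33.3 and 42.1 CPM in pkl-1, 41.6, 40.6 and 61.6 CPM in clf-28, with 31.7, 44.8 and 49.1 CPM in pie1-5, against 41.2, 42.5 and 41.9 CPM in WT. The 3 WT libraries lay close together, and each mutant group overlapped them. The log2 fold change was -0.24 ± 0.20 in pkl-1 (95% interval -0.67 to 0.20, adjusted p = 0.611). It was 0.20 ± 0.20 in clf-28 (-0.24 to 0.63, adjusted p = 0.753) and 0.00 ± 0.20 in pie1-5 (-0.43 to 0.43, adjusted p = 1). Without clf-28 3 the value of SNC1 in clf-28 was -0.03, and without pie1-5 1 the value in pie1-5 was 0.17.

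RPP4, one of the downy mildew resistance genes, had 36.8, 44.8 and 59.3 CPM in pkl-1, 47.0, 48.6 and 95.6 CPM in clf-28, with 11.5, 38.2 and 44.0 CPM in pie1-5, against 35.8, 36.8 and 41.7 CPM in WT. All 3 clf-28 libraries lay above all WT libraries, and clf-28 3 stood well above the others of its genotype. The log2 fold change of RPP4 was 0.30 ± 0.37 in pkl-1 (adjusted p = 0.747). It was 0.74 ± 0.37 in clf-28 (95% interval -0.05 to 1.54, adjusted p = 0.412) and -0.29 ± 0.37 in pie1-5 (adjusted p = 0.713). Without clf-28 3 the value in clf-28 was 0.33, and without pie1-5 1 the value in pie1-5 was 0.11. With no low-count filter RPP4 was called higher in clf-28 (adjusted p = 0.00871).

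RPP5, the other downy mildew resistance gene of the cluster, had 55.5, 53.6 and 66.2 CPM in pkl-1, 59.7, 55.5 and 79.4 CPM in clf-28, with 19.5, 51.8 and 54.8 CPM in pie1-5, against 45.3, 57.0 and 54.1 CPM in WT. Its groups overlapped in all 3 comparisons. The log2 fold changes of RPP5 were 0.17 ± 0.28, 0.32 ± 0.28 and -0.31 ± 0.29 in pkl-1, clf-28 and pie1-5 (adjusted p = 0.832, 0.704 and 0.579). Without clf-28 3 the value of RPP5 in clf-28 was 0.15, and without pie1-5 1 that in pie1-5 was 0.03.

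The remaining TIR-NLR genes of the cluster were lower in reads, with 58 to 865 reads per library. AT4G16900 had 4.20, 4.87 and 6.18 CPM in pkl-1, 5.69, 4.18 and 9.56 CPM in clf-28, with 3.17, 6.15 and 4.64 CPM in pie1-5, against 2.40, 5.78 and 5.10 CPM in WT. AT4G16920 had 12.2, 8.55 and 12.8 CPM in pkl-1, 11.6, 10.4 and 23.1 CPM in clf-28, with 4.39, 9.999 and 12.3 CPM in pie1-5, against 8.51, 9.30 and 11.9 CPM in WT. For both genes the highest level was in clf-28 3, and the groups overlapped in all 3 comparisons. For AT4G16920, pie1-5 1 lay below all WT libraries.

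AT4G16940 had 4.51, 5.47 and 6.41 CPM in pkl-1, 4.95, 4.23 and 10.7 CPM in clf-28, with 1.81, 6.69 and 6.78 CPM in pie1-5, against 5.18, 4.45 and 5.19 CPM in WT. AT4G16960 had 4.81, 4.62 and 6.38 CPM in pkl-1, 5.27, 5.62 and 10.1 CPM in clf-28, with 2.46, 7.42 and 8.56 CPM in pie1-5, against 3.98, 4.66 and 6.15 CPM in WT. Both genes were highest in clf-28 3 and lowest in pie1-5 1. Across these 4 genes the largest log2 fold change was 0.61 ± 0.34 (AT4G16920 in clf-28, adjusted p = 0.476), and no adjusted p against WT was below that value. The positive estimates in clf-28 rested in large part on clf-28 3. Without that library the log2 fold changes in clf-28 were 0.16 for AT4G16900, 0.16 for AT4G16920, -0.10 for AT4G16940 and 0.15 for AT4G16960, where with it they were 0.56, 0.61, 0.44 and 0.52. Without pie1-5 1 the values in pie1-5 were 0.29, 0.17, 0.45 and 0.70 for these genes in the same order, and with it 0.07, -0.16, 0.04 and 0.32.

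The median log2 fold change of the 8 genes was 0.16 in pkl-1, 0.48 in clf-28 and -0.08 in pie1-5, beside medians of 0.01, 0.00 and 0.01 over all tested genes. Without clf-28 3 the cluster median in clf-28 was 0.15, and without pie1-5 1 that in pie1-5 was 0.17. In clf-28, 7 of the 8 estimates were positive and only RLM3 was negative.

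**Figure D2:**
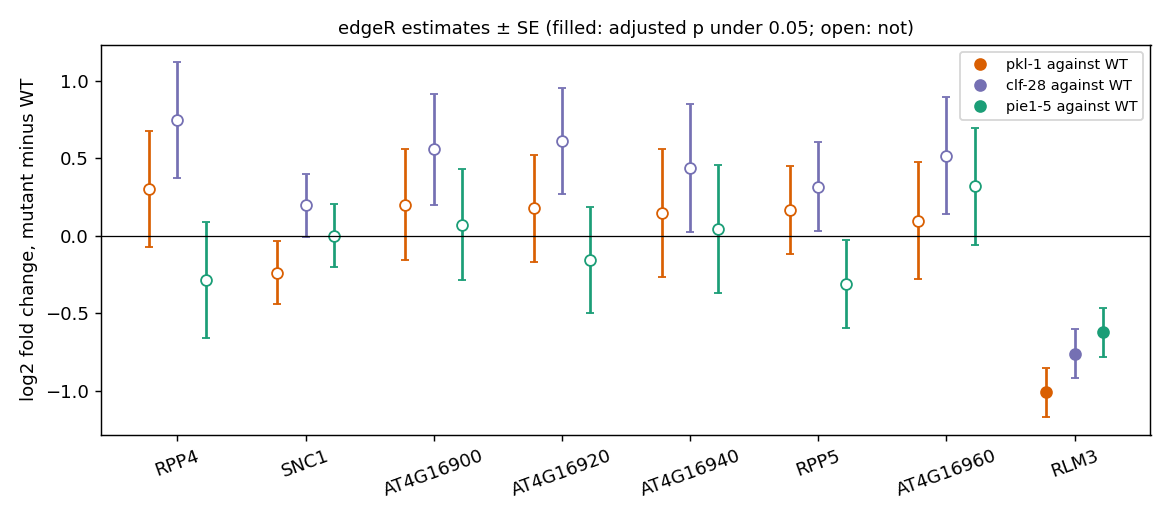
log2 fold change of each cluster gene, mutant minus WT (vertical axis), with the SE as bars, for pkl-1, clf-28 and pie1-5; filled points have an adjusted p under 0.05. RLM3 lies at -1.01, -0.76 and -0.62 with filled points, and the 7 other genes have open points between -0.31 and 0.74.

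Set against each other, the mutants gave no edgeR call for any cluster gene with the low-count filter on. In pkl-1 against clf-28 the count was 0 of 8, where 2.73% of all genes were called. In pie1-5 against clf-28 it was 0 of 8, beside 8.76%, and in pie1-5 against pkl-1 0 of 8, beside 11%. At an unadjusted edgeR p under 0.05 the counts were 0, 3 and 1, and DESeq2 called 0 in each. With no filter edgeR called 0, 3 and 1.

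The widest of these differences was that of RPP4, which was lower in pie1-5 than in clf-28 by 1.03 ± 0.38 on the log2 scale (adjusted p = 0.103), with libraries that did not overlap. This difference was smaller when either of the libraries that stand apart was left out. It was -0.62 without clf-28 3 (adjusted p = 0.421) and -0.64 without pie1-5 1 (adjusted p = 0.136), fits added after the data were seen, and with no low-count filter it was -1.04 and called (adjusted p = 2.05e-05). RPP5 also had libraries apart in this pair of mutants (log2 fold change -0.63 ± 0.29, adjusted p = 0.194), with -0.46 without clf-28 3, -0.29 without pie1-5 1 and a call with no filter (adjusted p = 0.0253). Libraries were apart for 28.3% of all genes in pie1-5 against clf-28 and for 29.5% in pie1-5 against pkl-1. RLM3 had a log2 fold change of 0.39 ± 0.16 in pie1-5 against pkl-1 (95% interval 0.05 to 0.72, adjusted p = 0.132), with all 3 pie1-5 libraries higher. For RLM3 the intervals were -0.59 to 0.08 in pkl-1 against clf-28 and -0.20 to 0.47 in pie1-5 against clf-28, around estimates of -0.25 and 0.14 that were -0.11 and 0.27 without clf-28 3.

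The 7 genes other than RLM3 varied together from library to library. In clf-28 3 they lay 0.31 to 0.81 above the mean of their genotype on the log2 CPM scale, and in pie1-5 1 they lay 0.38 to 1.24 below it. RLM3 lay 0.25 above the clf-28 mean in clf-28 3 and 0.04 below the pie1-5 mean in pie1-5 1. Over all tested genes the median deviation was 0.01 in clf-28 3 and 0.00 in pie1-5 1. Scaling to library depth keeps this median small in every library, so it does not tell whether other genes varied. Over genes with reads, both libraries also differed from their replicates. Chi-square per degree of freedom was 99.6 and 118 for clf-28 3 against clf-28 1 and 2, beside 15.8 between those. It was 99.5 and 86.5 for pie1-5 1 against pie1-5 2 and 3, beside 37.3 between those. In clf-28 3, 7 of the 8 genes, all but RLM3, lay above every WT library. In pie1-5 1, 7 of the 8, all but AT4G16900, lay below every WT library. RLM3 is among the latter, and it lay below WT in every mutant library.

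Across the 12 libraries, Pearson's r between log2 CPM of pairs of these 7 genes was 0.60 to 0.96 with a median of 0.81 (21 pairs). RLM3 had r of -0.16 to 0.37 with them. The libraries of a pair are the same 12, they fall into 4 genotypes, and near-identical receptor genes can share reads, since the rule for reads with several matches is not given in the sources used here. AT4G16920, RPP5 and AT4G16960 also overlap other annotated genes, and the labels name a library kit whose reads carry no strand.

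Salicylic acid defence genes moved beside these library differences in pie1-5. The 14 genes of that list summed to 229 CPM in pie1-5 1, against 575 and 599 CPM in pie1-5 2 and 3. In WT they summed to 147 to 250 CPM, a range that holds pie1-5 1. In clf-28 they summed to 71.0, 58.4 and 56.0 CPM in libraries 1, 2 and 3, so clf-28 3 was not high for them. A list of 19 other TIR-NLR genes summed to 156 CPM in clf-28 3, against 115 and 108 CPM in clf-28 1 and 2. The same list summed to 170 CPM in pie1-5 1, within 167 to 178 CPM in pie1-5. The part of the clock genes, which differed in pie1-5 1, in the level of the cluster was not tested.

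**Figure D3:**
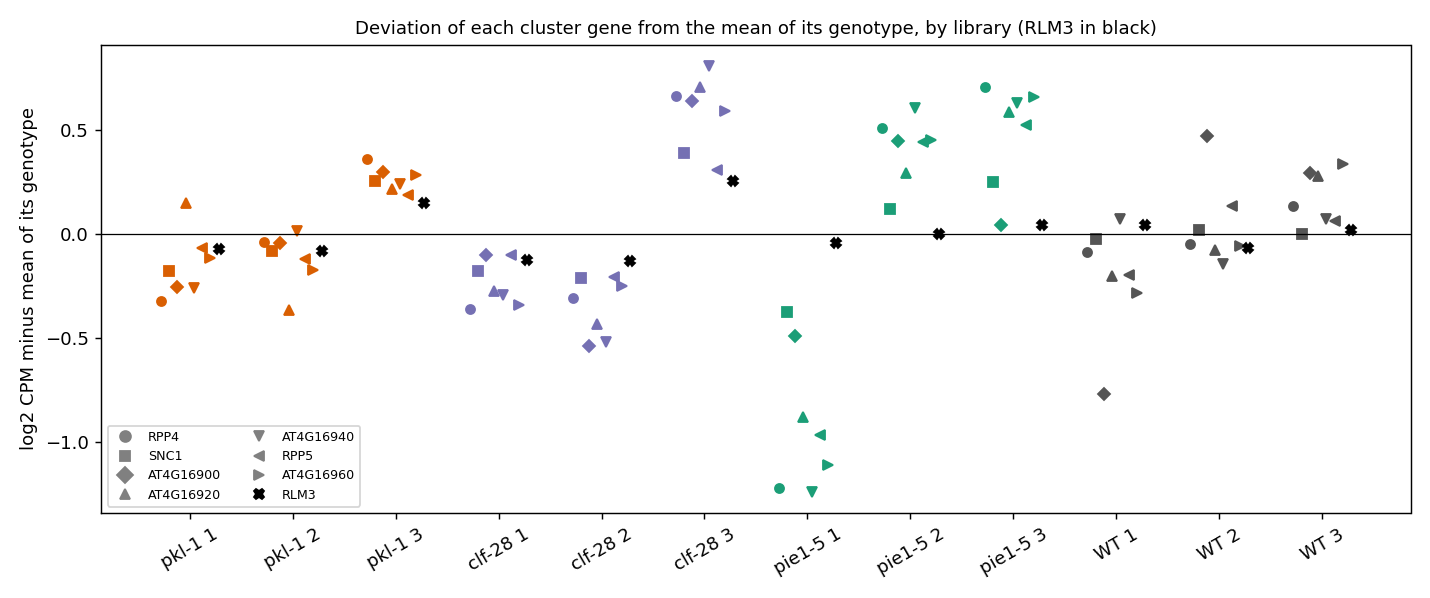
Deviation of each cluster gene from the mean of its own genotype in log2 CPM (vertical axis), for each of the 12 libraries, RLM3 in black. The genes lie 0.25 to 0.81 above 0 in clf-28 3, and the 7 genes other than RLM3 lie 0.38 to 1.24 below 0 in pie1-5 1.

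The genes most like SNC1 over the 12 libraries, by Pearson's r of log2 CPM, were AT2G14080 (r = 0.97), SNC4 (0.92), AT1G14670 (0.92), AT4G11380 (0.92) and DME (0.91). SNC4 encodes a receptor-like kinase and DME a DNA glycosylase that removes methylated cytosine. The genes most like the mean of the standardised cluster genes were AT1G73980 (r = 0.96), the kinase gene WNK1 (0.93), GC5 (0.91), SLK1 (0.91) and SLP3 (0.90). These are the highest of many correlations over libraries that fall into 4 genotypes, and they are given as a description.

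Of 11 genes that act downstream of TIR-NLR receptors, edgeR called 1 lower in pkl-1, none in clf-28 and 2 higher in pie1-5. Among all tested genes 2.58% were called lower in pkl-1 and 3.8% higher in pie1-5, and 2.15% were called in either direction in clf-28. PAD4, the partner of EDS1, fell 4.37-fold in pkl-1 (1.43 ± 0.215 CPM, against 6.26 ± 1.45 CPM in WT; SD, n = 3; adjusted p = 0.00759). In pie1-5, EDS1 rose 1.77-fold (17.1 ± 3.82 CPM, against 9.64 ± 1.12 CPM in WT; adjusted p = 0.0258). The helper receptor gene ADR1 rose 3.60-fold in pie1-5 (7.13 ± 1.87 CPM, against 1.97 ± 0.267 CPM in WT; adjusted p = 0.00113).

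The medians of the 11 genes were -0.32, -0.22 and 0.49 on the log2 scale in pkl-1, clf-28 and pie1-5. In clf-28, where edgeR called none, 1 was higher and 2 were lower at an unadjusted p under 0.05, and DESeq2 called 1 lower. The call of EDS1 was lost without WT 1, WT 2, WT 3 or pie1-5 3 (adjusted p up to 0.115), while those of PAD4 and ADR1 held in every fit without 1 library. Without pie1-5 1, 4 of the 11 were called higher in pie1-5.

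Salicylic acid defence genes fell in pkl-1 (8 of 14) and in clf-28 (5 of 14) and rose in pie1-5 (7 of 14) by edgeR, beside 2.58%, 1.23% and 3.8% of all genes in those directions. EdgeR called none in the other direction, where 1 was higher in clf-28 at an unadjusted p under 0.05 and 1 was called higher by DESeq2, and the counts were 0 by both measures in pkl-1 and pie1-5. Their median log2 fold changes were -2.15, -1.45 and 1.24. The summed level of the 14 genes in pie1-5 1, 229 CPM, lay within the 147 to 250 CPM of WT. WRKY70, a transcription factor gene of this branch, had 3.47 ± 0.0303 CPM in pkl-1, 5.97 ± 0.430 CPM in clf-28, with 59.5 ± 24.1 CPM in pie1-5, against 16.6 ± 1.72 CPM in WT (adjusted p = 5.97e-05, 0.00294 and 0.000309). BGL2, which encodes the pathogenesis-related glucanase PR2, fell 12.1-fold in pkl-1 and 13.1-fold in clf-28 (adjusted p = 0.00143 and 0.00215). PR5, a thaumatin-like protein gene, fell 7.85-fold in pkl-1 (adjusted p = 0.000293).

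In clf-28, WRKY54 fell 4.40-fold (adjusted p = 0.0160), and this call was lost without WT 3, clf-28 2 or clf-28 3 (adjusted p up to 0.0951). In pie1-5, EDS5, the salicylic acid exporter gene, rose 2.44-fold (adjusted p = 0.0220), a call lost without WT 1, WT 2 or pie1-5 3 (adjusted p up to 0.0911). NIMIN1, which encodes a protein that binds the regulator NPR1, was called higher in pie1-5, with 4.92, 6.05 and 4.67 CPM, against 0, 0 and 0.088 CPM in WT. The calls fell to as few as 2 of 14 in clf-28, without clf-28 2 or clf-28 3. In pie1-5 they ranged from 2, without pie1-5 3, to 11, without pie1-5 1, and were 3 or 4 without pie1-5 2, WT 1, WT 2 or WT 3. WRKY70 stayed called in every such fit in all 3 mutants. Of the 7 cluster genes other than RLM3, edgeR with its low-count filter called none in any mutant, nor did DESeq2. EdgeR called 4.03%, 2.15% and 7.36% of all tested genes in pkl-1, clf-28 and pie1-5, and no call among 7 genes lies near these shares.

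Genes known to control SNC1 level or activity formed a list of 19, of which 18 were tested. EdgeR called none of them in pkl-1, clf-28 or pie1-5, where 4.03%, 2.15% and 7.36% of all tested genes were called. A count of 0 of 18 lies near these shares. None reached an unadjusted p under 0.05 in these 3 comparisons, and DESeq2 called none. Their median log2 fold changes were -0.08, 0.05 and -0.05.

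Receptor genes elsewhere in the genome were compared in the same way. Of 17 tested TIR-NLR genes outside the cluster, 2 fell in pkl-1, none was called in clf-28 and 3 rose in pie1-5, beside 2.58% of all genes called lower in pkl-1 and 3.8% called higher in pie1-5. In clf-28, 2.15% of all genes were called in either direction. AT5G41740 fell 3.23-fold and AT5G41750 8.72-fold in pkl-1 (adjusted p = 0.00297 and 0.000464), in every fit without 1 library as well. AT3G44630 rose 2.23-fold in pie1-5 (16.9 ± 1.78 CPM, against 7.57 ± 0.908 CPM in WT; adjusted p = 0.00424). WRR4, a white rust resistance gene, rose 1.66-fold and AT5G41750 2.40-fold in pie1-5 (adjusted p = 0.0323 and 0.0421). Both calls, of WRR4 and AT5G41750, were lost without WT 1, WT 2, WT 3, pie1-5 2 or pie1-5 3, when 1 of the 17 stayed called. In clf-28 the count at an unadjusted p under 0.05 was 1 higher and 1 lower, DESeq2 called 0, and without clf-28 3 edgeR called 1 lower.

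Of 8 genes of the coiled-coil (CC-NLR) class, RPS2 fell 3.64-fold and RPP8 1.65-fold in pkl-1 (adjusted p = 0.000228 and 0.0204), where 2.58% of all genes were called lower. The call of RPP8 was lost in each fit without 1 library except that without WT 1. In clf-28 edgeR called none, beside 2.15% of all genes, with 2 lower at an unadjusted p under 0.05. There 1 was called lower by DESeq2 and by edgeR without WT 1. In pie1-5 edgeR called none, beside 7.36% of all genes, with 2 higher and 1 lower at an unadjusted p under 0.05. DESeq2 called none in pie1-5, and edgeR called 1 higher without pie1-5 1.

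**Figure D4:**
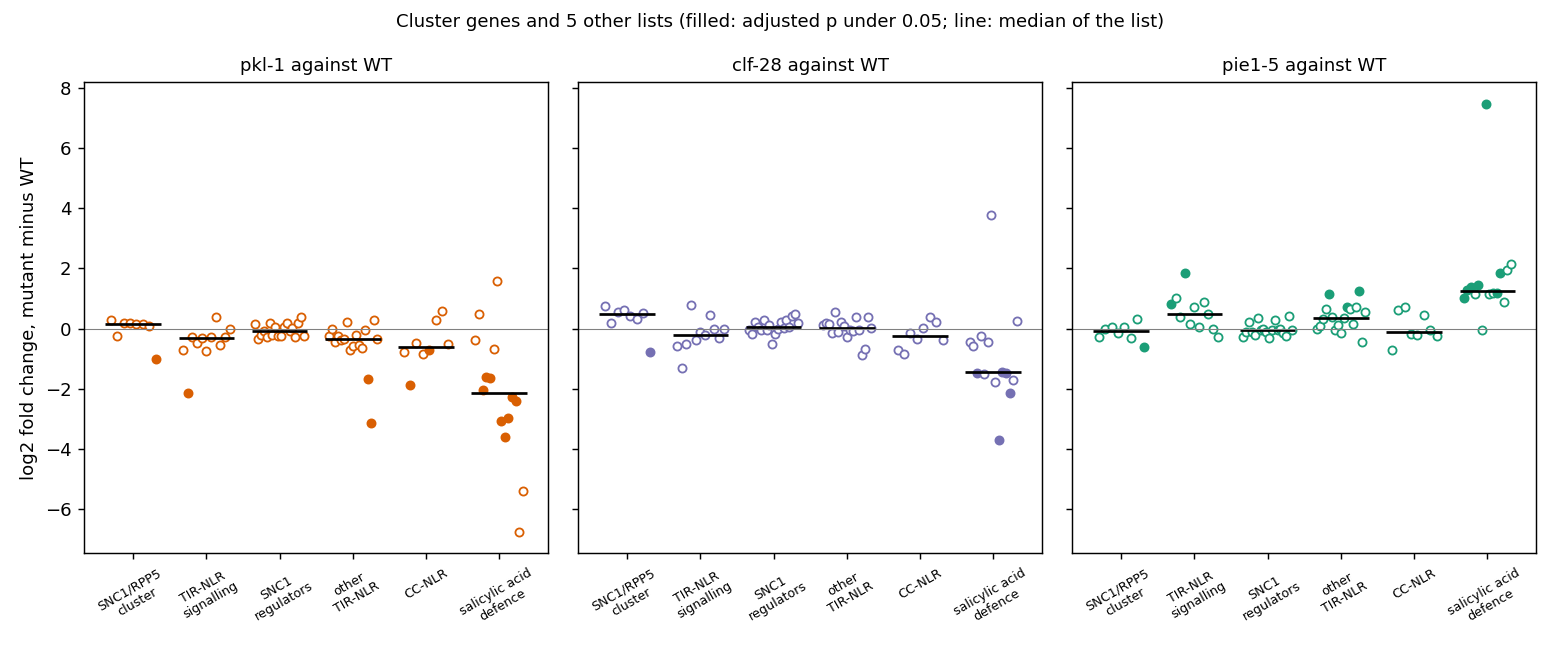
log2 fold change, mutant minus WT (vertical axis), of the tested genes of the cluster and of 5 other lists in pkl-1, clf-28 and pie1-5, each point a gene, filled at an adjusted p under 0.05, with a line at the median. Salicylic acid defence genes lie lowest in pkl-1 and clf-28 (medians -2.15 and -1.45) and highest in pie1-5 (1.24), while the cluster medians are 0.16, 0.48 and -0.08.

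Among genes beside and between the cluster members, 20 were tested. EdgeR called none in pkl-1 or clf-28, beside 4.03% and 2.15% of all genes, where 1 was higher at an unadjusted p under 0.05 in each, and DESeq2 called none. In pie1-5 it called 2 of the 20, beside 7.36% of all genes. In pie1-5, EXLB1, an expansin-like gene, rose 2.96-fold (3.39 ± 0.867 CPM, against 1.13 ± 0.385 CPM in WT; adjusted p = 0.0298). AT4G16840 fell 3.19-fold in pie1-5 (0.811 ± 0.119 CPM, against 2.60 ± 0.814 CPM in WT; adjusted p = 0.0110). The call of EXLB1 was lost without WT 1, WT 3, pie1-5 2 or pie1-5 3 (adjusted p up to 0.105), and that of AT4G16840 without WT 3 (adjusted p = 0.0540).

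AT4G16980, which lies beside RLM3, had 802 ± 121 CPM in pkl-1, 592 ± 119 CPM in clf-28, with 868 ± 299 CPM in pie1-5, against a mean of 777 CPM in WT, and was not called (adjusted p = 0.952, 0.517 and 0.753). AT4G16983 is annotated inside AT4G16980, so their reads cannot be told apart, and it had 1.99 ± 0.379 CPM in pkl-1, 1.35 ± 0.227 CPM in clf-28, with 2.28 ± 0.711 CPM in pie1-5, against 1.38 ± 0.208 CPM in WT. Its pkl-1 and pie1-5 libraries lay above those of WT, and it was not called (adjusted p = 0.486, 0.985 and 0.240). AT4G16880, between RPP4 and SNC1, had 5.67 ± 1.53 CPM in pkl-1, 5.38 ± 2.99 CPM in clf-28, with 3.05 ± 2.07 CPM in pie1-5, against 3.57 ± 0.497 CPM in WT, and was not called either.

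Trimethylation of histone H3 lysine 27 (H3K27me3), the Polycomb mark, was listed over few of these genes. The tables hold regions that the SICER caller found when 1 mutant library was set against WT, so a gene without a region is one where none was listed. In 6 of 6 tables a region lay over AT4G16920, and regions ran on over the stretch with AT4G16930 toward AT4G16940. No table listed a region over RPP4, SNC1, AT4G16900, AT4G16940, RPP5 or AT4G16960. Coordinates are those of the build TAIR10, counted from 1.

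In pkl-1 this stretch had a density closer to that of WT than the median region did. At chr4:9525201-9530600 it had 12.3 RPM per kb (reads per kb of a region, scaled to the depth of the library) in pkl-1 1 and 12.8 RPM per kb in WT. The authors' ratio of pkl-1 to WT was 0.962 there, above that of 88.5% of all regions of the table, whose median was 0.628. In the pkl-1 2 table the authors' ratios were 1.02 over AT4G16920 and 0.822 at chr4:9527801-9530600, with a median of 0.530 over all regions. All 6 tables use 1 WT library for this mark, so the fit over matched regions compares 2 mutant libraries with 1. For pkl-1, with the narrower region of pkl-1 2, its log2 fold change was -0.15 ± 0.37 (adjusted p = 0.720), where 51% of 5337 matched regions were called and the median was -0.79. With TMM factors over the regions the value was 0.65 and was not called.

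In clf-28 the same stretch had less signal than WT in both tables. Its authors' ratios lay below the medians over all regions, 0.769 in clf-28 1 and 0.489 in clf-28 2. At chr4:9525201-9525800, over AT4G16920, it had 6.73 and 5.77 RPM per kb in clf-28 1 and 2, against 17.3 RPM per kb in WT. At chr4:9528001-9530600 it had 7.83 and 1.94 RPM per kb in clf-28 1 and 2, against 14.5 RPM per kb in WT. Over AT4G16920 the authors' ratios were 0.401 in clf-28 1 and 0.362 in clf-28 2, where 7.17% and 41.56% of the regions had a lower one. At chr4:9528001-9530600 the ratios were 0.542 in clf-28 1 and 0.142 in clf-28 2, where 20.98% and 5.46% of the regions had a lower one. The clf-28 values of the second table rest on 11 and 16 reads, and that library held 3.17 M reads. The log2 fold changes were -1.46 ± 1.72 and -1.56 ± 1.42 (adjusted p = 0.932 for both), with 0% of 5441 regions called, 3 at an unadjusted p under 0.05 and a median of -0.92.

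In pie1-5 the stretch had 12.6 RPM per kb in pie1-5 1 at chr4:9524201-9530800, against 11.9 RPM per kb in WT. In pie1-5 2 it had 15.2 RPM per kb at chr4:9526601-9530800, against 12.8 RPM per kb in WT. The authors' ratio there was 1.19 and their FDR for higher signal 1.09e-06, where 27.5% of the regions of that table had such an FDR under 0.05. The pie1-5 2 table also listed a separate region at chr4:9525201-9525800 over AT4G16920, which lay lower than WT, with 13.9 RPM per kb in pie1-5 2 and 17.3 RPM per kb in WT. For that region the authors' ratio was 0.805 and their FDR for lower signal 0.00976, where 56.7% of the regions of the table had such an FDR under 0.05. For the stretch matched between both pie1-5 tables the log2 fold change was 0.18 ± 0.65 (adjusted p = 0.996), where 0.0193% of 5180 regions were called and the median was -0.32.

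RLM3, whose transcripts were lower in each mutant, lay under an H3K27me3 region in 1 table of clf-28 and 1 of pie1-5. At chr4:9559601-9563000 the density was 10.3 RPM per kb in clf-28 1 and 6.82 RPM per kb in WT, an authors' ratio of 1.51. At chr4:9560801-9562800 it was 13.2 RPM per kb in pie1-5 2 and 8.50 RPM per kb in WT, an authors' ratio of 1.55. The authors' FDR for higher signal was 5.76e-08 and 2.13e-14, a test on the reads of 2 libraries that passed for 15.3% of the regions of the clf-28 1 table and 27.5% of those of pie1-5 2. No region over RLM3 was listed in the clf-28 2, pie1-5 1 or either pkl-1 table, so no replicate bears on it. In the clf-28 2 table, a region at chr4:9484201-9488400 over AT4G16870, within 1 kb of RPP4, had an authors' ratio of 6.49, and 83.2% of the regions of that table had a lower one.

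H2A.Z, the histone variant placed by the PIE1 complex, covered more of the cluster. All 6 H2A.Z tables listed regions over RPP4, AT4G16920, AT4G16940 and AT4G16960, 5 did so over RPP5 and 4 over AT4G16900. None listed a region over SNC1 or RLM3, although regions lay within 1 kb of both. One region of each table, chr4:9525001-9538000 in pkl-1 1, ran from AT4G16920 over AT4G16930 and AT4G16940 and so covered the stretch that also carried H3K27me3.

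In pie1-5 each of the 6 matched H2A.Z regions of the cluster had less signal than WT in both libraries. The region from RPP4 over AT4G16880, at chr4:9495201-9499200 in pie1-5 1, had 7.39 and 14.1 RPM per kb in pie1-5, against 18.7 and 19.4 RPM per kb in WT. Its match in pie1-5 2, chr4:9496601-9499200, does not reach RPP4, over which a separate region at chr4:9495201-9495800 had 15.5 RPM per kb in pie1-5 2 and 24.0 RPM per kb in WT. The region from AT4G16920 over AT4G16940 had 10.1 and 13.3 RPM per kb in pie1-5, against 18.9 and 18.2 RPM per kb in WT. The 2 pie1-5 libraries differed from each other, pie1-5 1 being the lower in 5 of the 6 regions.

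The fitted log2 fold changes in pie1-5 were -0.83 to -0.47, with a median of -0.58 beside -0.73 over all 14570 matched regions, and none was called (adjusted p = 0.276 to 0.448). Over all regions 0.0206% were called, and 1873 had an unadjusted p under 0.05. None of the 6 was below an unadjusted p of 0.05. Without pie1-5 2 there were calls at 5 of the 6 regions (adjusted p 0.000948 to 0.0155), as at 13850 of all regions, in a fit where the 1 pie1-5 library left is assumed to vary like those of WT. Without pie1-5 1, on the same assumption, 0 of all regions were called, and the 6 had adjusted p values of 0.0549 to 0.175. With TMM factors over the regions, 5 of the 6 values were positive (0.14 to 0.32) and none was called.

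Against this, the pie1-5 1 table listed 2 narrow regions with more H2A.Z in the mutant. At chr4:9512001-9513000, over AT4G16900, the density was 22.8 RPM per kb in pie1-5 1 and 3.78 RPM per kb in WT. At chr4:9487401-9488200, over AT4G16870 beside RPP4, it was 17.5 RPM per kb in pie1-5 1 and 2.69 RPM per kb in WT. Neither was listed in the pie1-5 2 table, and the authors' FDR for higher signal passed for 6.05% of the regions of the pie1-5 1 table.

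In pkl-1, 3 of the 4 matched H2A.Z regions lay near their WT level and 1 was lower. At chr4:9517001-9520800, over AT4G16915 and AT4G16920, the density was 10.4 RPM per kb in pkl-1 1, against 15.4 RPM per kb in WT. Its match in pkl-1 2, chr4:9516201-9520800, also reaches AT4G16900. That region had 10.5 RPM per kb in pkl-1 2, against 14.8 RPM per kb in WT. The libraries did not overlap, and how many of all matched regions have libraries apart was not counted. The log2 fold change was -0.52 ± 0.09 with an unadjusted edgeR p of 0.00133 and an adjusted p of 0.894. Over all 9861 matched regions 0.0101% were called, 352 had an unadjusted p under 0.05 and the median was 0.00. A fit with a replicate block, given at the end, called this region, but replicate numbers are not known to mark pairs. The authors' ratios there were 0.678 and 0.714, and 0.439% and 3.40% of the regions of the 2 tables had a lower ratio. The transcript of AT4G16920 was not called in pkl-1 (log2 fold change 0.18 ± 0.34, adjusted p = 0.854).

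In clf-28, H2A.Z over the 7 matched regions gave log2 fold changes of -0.32 to 0.21, with a median of -0.15 beside -0.27 over all 14539 regions. None was called or had an unadjusted p under 0.05, where 0% of all regions were called and 1694 had such a p. The region from AT4G16920 over AT4G16940 was the lowest, with 14.6 and 15.0 RPM per kb in clf-28, against 18.9 and 18.2 RPM per kb in WT (log2 fold change -0.32 ± 0.14, adjusted p = 0.405). The narrow region over RPP5 had 17.3 and 21.4 RPM per kb in clf-28, against 18.8 and 14.9 RPM per kb in WT, with overlapping libraries. With TMM factors over the regions, 4 of the values that were negative became positive (0.04 to 0.26).

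**Figure D5:**
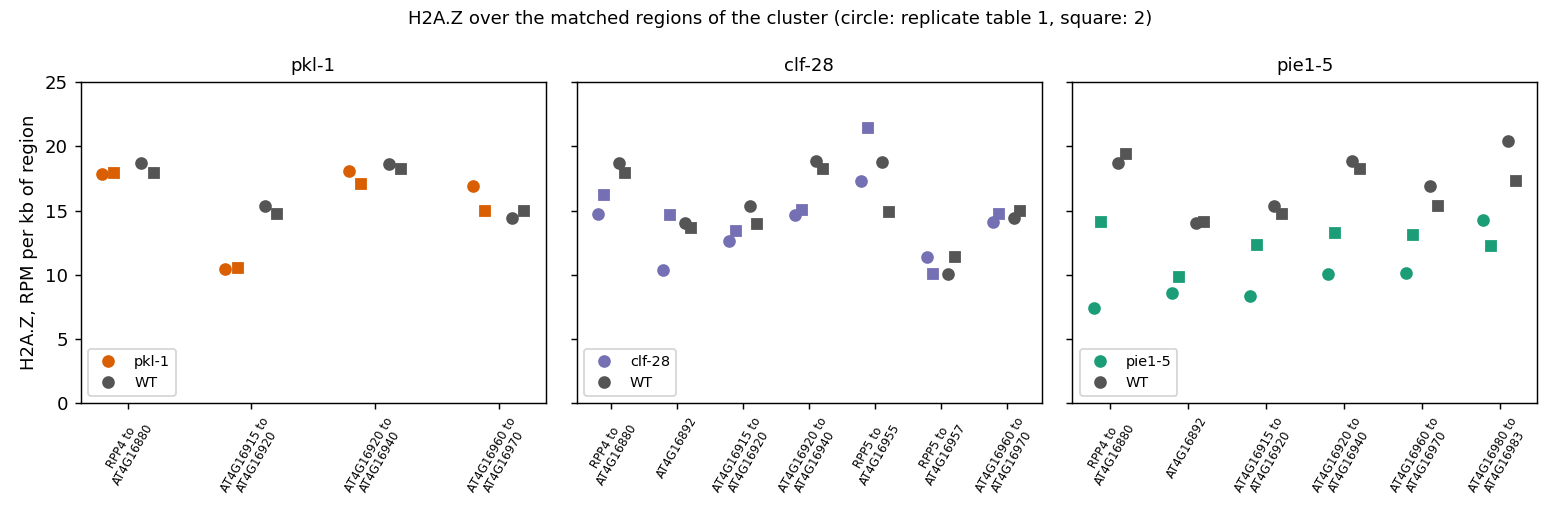
H2A.Z density in RPM per kb (vertical axes, starting at 0) over the matched regions of the cluster in both replicate tables of pkl-1, clf-28 and pie1-5, each beside its WT libraries in grey. All pie1-5 points lie below the WT points of their region. In pkl-1 the matched region of AT4G16915 and AT4G16920 has 10.4 and 10.5 RPM per kb, against 15.4 and 14.8 RPM per kb in WT. In pkl-1 2 that region also reaches AT4G16900.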

How the data were processed

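Of the 44 samples, 12 RNA-seq libraries and the region tables of H3K27me3 and H2A.Z were used; other libraries were not analysed here. Per the submitters' processing notes, the tools were Bowtie2, Trimmomatic, SICER, edgeR, deepTools and bedtools, on TAIR10. No version, read counter or rule for reads with several matches is stated. The authors deposited raw read counts per gene and, in another table, their own comparisons (log2 fold change, p-value, FDR). Per the file headers, each ChIP table gives read counts, RPM, the ratio of mutant to WT and p-values for SICER regions on 200 bp windows.

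Counts were tested with edgeR 4.0.16 (TMM, its default low-count filter, 1 fit of 12 libraries, quasi-likelihood F test, Benjamini-Hochberg adjustment over all genes, calls at 0.05). Values after ± are SD for CPM and SE for log2 fold changes. The alternatives were DESeq2, RLE factors, no filter, a replicate block, nuclear genes only, 2 genotypes only and leaving out each library. Replicate numbers did not pair the RNA libraries: 1 of 18 correlations of same-numbered deviations was over 0.1.

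Regions of both replicate tables were matched as best overlaps of at least 50% of the shorter one and tested with edgeR, with library totals (3.17 M to 19.3 M reads) recovered from counts and RPM, and region length as an offset. WT for H3K27me3 is 1 library in all 6 tables, counted once. Gene names and positions relative to regions came from a RefSeq table of TAIR10.1, whose coordinates are not printed. That table gives no strand, so 1 kb on both sides of a gene was used in place of 1 kb upstream. No sequence is shown. The tests were tried on simulated data.

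No measured value enters the rule that took the members by identifier. Members, lists, tests and alternatives were still chosen with earlier results of these data known. Named genes are the 8 members, the targeted genes, called TIR-NLR signalling genes, up to 3 called genes per other list and mutant by smallest adjusted p, called neighbours and genes between members, and the 5 genes most like SNC1 and the 5 most like the cluster mean. Named regions lie over or within 1 kb of a member.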

Additional observations from a re-analysis of the deposited data

How the results depend on the processing

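The call of RLM3 in pkl-1 held under every alternative run. Counts of genes called in pkl-1, clf-28 and pie1-5 against WT were 1401, 830 and 2234 with DESeq2, 1763, 1174 and 2358 with no low-count filter, and 1470, 940 and 513 with only the 2 genotypes fitted. Leaving out 1 library gave 412 to 596, 169 to 332 and 749 to 2011. Cluster genes called in clf-28 were 2 with no filter (RPP4, adjusted p = 0.00871) and 0 to 1 with 1 library left out. In pie1-5 they were 0 with 2 genotypes fitted and 0 to 1 with 1 library left out. In pie1-5 against clf-28 they were 3, and in pie1-5 against pkl-1 1, with no filter. With a replicate block, the counts in pkl-1, clf-28 and pie1-5 were 812, 385 and 1509 genes and 1 cluster gene in pie1-5 against clf-28 (RPP4, adjusted p = 0.0325); the numbers mark no pairing. Why these counts differ was not tested.

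Among uncalled log2 fold changes, SNC1 in pie1-5 was 0.0255 with DESeq2, 0.0255 with RLE factors, 0.000832 with no filter, 0.00288 with nuclear genes only and 0.00262 with 2 genotypes. AT4G16940 in pie1-5 was -0.0840 with the block. With 1 library left out, signs varied in pkl-1 for AT4G16900 (-0.10 to 0.44) and AT4G16960 (-0.0631 to 0.28). In clf-28 they varied for SNC1 (-0.0256 to 0.31) and AT4G16940 (-0.10 to 0.68). In pie1-5 they varied for RPP4 (-0.61 to 0.11), SNC1 (-0.13 to 0.17), AT4G16900 (-0.23 to 0.32), AT4G16920 (-0.46 to 0.17), AT4G16940 (-0.22 to 0.45) and RPP5 (-0.55 to 0.0340).

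TMM factors over regions gave 9, 43 and 3 called H3K27me3 regions in pkl-1, clf-28 and pie1-5, and 0.65 for the cluster region in pkl-1. For H2A.Z they gave 0.0358, 0.11, 0.11 and 0.26 in clf-28 and 0.21, 0.23, 0.14, 0.32 and 0.26 in pie1-5. At an adjusted p under 0.01 the counts were 1740 for H3K27me3 and 0 for H2A.Z in pkl-1. With 2 pairs of ChIP libraries a replicate number is not known to mark a pair. Differences in H2A.Z density between the 2 replicate tables correlated between mutant and WT (r = 0.67, 0.37 and 0.31 in pkl-1, clf-28 and pie1-5). Mutant and WT share the region bounds of each table, which can give such an r without pairing. The headers do not name the WT replicate. The replicate block gave 129 H2A.Z regions in pkl-1, among them the one over AT4G16920 (adjusted p = 0.00174), and 10 in clf-28. Leaving out 1 library gave 0 H2A.Z regions in pkl-1 and 0 to 13850 in pie1-5, the left library being assumed to vary like WT. For uncalled H2A.Z regions in clf-28 it gave -0.42 to 0.0845 beside SNC1, -0.0890 to 0.0895 over RPP5 and AT4G16957 and -0.0569 to 0.00202 over AT4G16960. With 1 WT library, H3K27me3 could not be fitted with a block or with a library left out. A region that no table lists is not a level of 0.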
